A study of Mus musculus with 24 samples.

Results

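The genes described here are Rsad2, Mx1, Mx2, Ifit1, Ifit2, Ifit3, Isg15, Irf7, Cmpk2 and Oasl1, a set of antiviral genes that type I interferon switches on. Every probe whose platform gene symbol was one of these 10 names was taken. Of them, 9 genes had a named probe, among 9659 genes with a symbol, and together these had 13 of the 24046 probes on the array. Ifit1 was not analysed here. Ifit3 had 3 probes, Mx1 and Oasl1 had 2 each, and the other 6 genes had 1 each. Whole lungs were profiled on Illumina mouse expression beadchips, with 3 arrays in each of 8 groups. The groups were Rag-1 null mice at days 1, 4 and 10 after lipopolysaccharide (LPS, a cell wall component of Gram-negative bacteria that causes acute lung injury), Rag-1 null control mice, wild type mice at the same 3 days, and wild type control mice. All were male C57BL/6 mice of 6 to 8 weeks. Rag-1 null mice lack mature T and B cells throughout life and in every organ, so they are not a model of the loss of regulatory T cells alone, the subset that the study's title concerns. How LPS was given and at what dose, what control mice received and how many animals lie behind each array were not stated in the labels. The p-values therefore measure only the spread between these arrays, which may be technical.

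Type I interferons (interferon beta and the interferon alphas) are secreted when sensors such as Toll-like receptors or RIG-I meet microbial products, and LPS induces them through Toll-like receptor TLR4 and the factor IRF3. They act on the receptor IFNAR, whose kinases JAK1 and TYK2 activate STAT2; a complex that holds STAT2 and IRF9 binds the interferon-stimulated response element (ISRE) in the promoters of antiviral genes. Several of those genes, Rsad2 and the Ifit genes among them, can also be induced directly by IRF3, so their messenger RNA does not by itself show that interferon was present. In the lung, alveolar macrophages, epithelium, monocytes and plasmacytoid dendritic cells are known producers or responders.

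To show the element in the genes themselves, promoter windows of 300 bases (250 before to 50 after the annotated start) were read from RefSeq, build GRCm38.p6. Windows were found for 7 of the 9 genes, 8 windows in all because Ifit2 had 2. The ISRE core was searched as GAAA, any 2 bases and GAAA again, and, for the other strand, as TTTC, any 2 bases and TTTC. It occurred in 3 of the 8 windows, those of Isg15, Rsad2 and Ifit3, and in 1131 of all 32851 RefSeq windows (3.44%). The 3 windows are printed 5′ to 3′ along the gene's own strand, with the ISRE matches in capitals. They lie at chr4:156200769-156201068 (minus strand) for Isg15, chr12:26456403-26456702 (minus strand) for Rsad2 and chr19:34583279-34583578 (plus strand) for Ifit3.
Isg15: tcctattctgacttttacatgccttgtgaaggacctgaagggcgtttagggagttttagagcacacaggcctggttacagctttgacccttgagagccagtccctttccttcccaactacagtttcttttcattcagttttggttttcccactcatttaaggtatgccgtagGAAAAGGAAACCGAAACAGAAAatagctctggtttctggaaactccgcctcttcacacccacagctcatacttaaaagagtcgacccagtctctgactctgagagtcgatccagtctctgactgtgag
Rsad2: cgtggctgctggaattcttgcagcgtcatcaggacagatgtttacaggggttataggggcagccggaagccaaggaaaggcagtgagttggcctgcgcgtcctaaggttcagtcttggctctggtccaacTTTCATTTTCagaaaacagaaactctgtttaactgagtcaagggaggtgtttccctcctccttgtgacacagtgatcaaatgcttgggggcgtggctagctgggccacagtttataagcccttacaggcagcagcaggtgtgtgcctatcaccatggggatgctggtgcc
Ifit3: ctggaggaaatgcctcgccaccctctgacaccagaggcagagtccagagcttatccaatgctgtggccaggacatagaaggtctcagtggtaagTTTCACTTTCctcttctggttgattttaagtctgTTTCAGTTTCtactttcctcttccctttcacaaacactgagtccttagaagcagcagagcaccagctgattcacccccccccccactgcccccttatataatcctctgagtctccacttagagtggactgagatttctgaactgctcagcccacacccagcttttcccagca
In Isg15 there were 3 overlapping matches, beginning at positions -78, -72 and -66 relative to the start. Rsad2 held 1 match at -120, and Ifit3 held 2, at -156 and -122. A match is a description of these letters, not a binding site, and a window with none says only that the letters are not in it. In the same annotation Rsad2 and Cmpk2 are neighbouring protein-coding genes on chromosome 12, and Ifit2 and Ifit3 are neighbours on chromosome 19. Isg15 lies on chromosome 4, Oasl1 on chromosome 5 and Irf7 on chromosome 7.

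Levels are normalized bead signals on a log2 scale, where 1 unit is a doubling, and a gene's value is that of its brightest probe. They can be compared between arrays for a gene, not between genes. Between 9517 and 12125 probes per array were above background. Each slide carried 1 array of every group, always at the same position, which means that group and position cannot be told apart, and the replicate number is the slide number. Wild type LPS day 1 replicate 1 stood apart. It correlated at 0.858 and 0.914 with replicates 2 and 3 of its group over the tested probes, against 0.969 between those. Counts of the antiviral genes in comparisons that use it are given with and without it, as are some other results. Replicate 2 had the fewest probes above background of all arrays (9517). The array weights estimated in limma were 0.099, 0.284 and 1.74 for replicates 1, 2 and 3. Results without replicate 1 thus rest on replicate 2, of low weight, and replicate 3. The Rag1 probe did not check the genotype, since it lay near background in both (4.45 to 4.94 in Rag-1 null lungs and 4.28 to 4.76 in wild type lungs). Group labels rest on matching the arrays to the deposited value table; the scanner table's own title line would put 20 of the 24 arrays in another group, and which of them the submitters intended is not settled by the labels. With the labels used, defining T cell markers (Cd3e, Cd3d and Cd3g) summed to 61 to 67 normalized signal units in Rag-1 null lungs, against 108 to 286 in wild type lungs. Under the title line the same sums would be 62 to 221 in Rag-1 null and 61 to 286 in wild type lungs. The B cell markers Cd79a and Cd79b summed to 51 to 67 in Rag-1 null lungs, against 84 to 323 in wild type lungs. Lung markers were high in all groups: the 5 alveolar epithelial markers tested (Sftpc, Sftpb, Abca3, Ager and Aqp5) summed to 7638 to 22243 units.

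In control lungs the antiviral genes were low in both genotypes and none differed between them. Their mean level over the 9 genes was 5.31 in Rag-1 null controls and 5.36 in wild type controls. With limma, 0 of 9 differed, also 0 at an unadjusted p under 0.05, with a median log2 difference of -0.05 for Rag-1 null over wild type, where 0.288% of all tested probes were called higher and 0.997% lower at an adjusted p under 0.05. Mx1 and Oasl1 were above background on none of the control arrays of either genotype, and Mx2 on 1 of the 3 Rag-1 null and none of the wild type control arrays. Rsad2, Ifit2, Ifit3, Isg15, Irf7 and Cmpk2 were above background on all 24 arrays. The wild type controls varied in neutrophil markers (6 tested), which summed to 808 to 7870 units there, against 1365 to 1547 in Rag-1 null controls. None of these markers was called between the 2 control groups, and their part in the result was not tested.

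**Figure D1:**
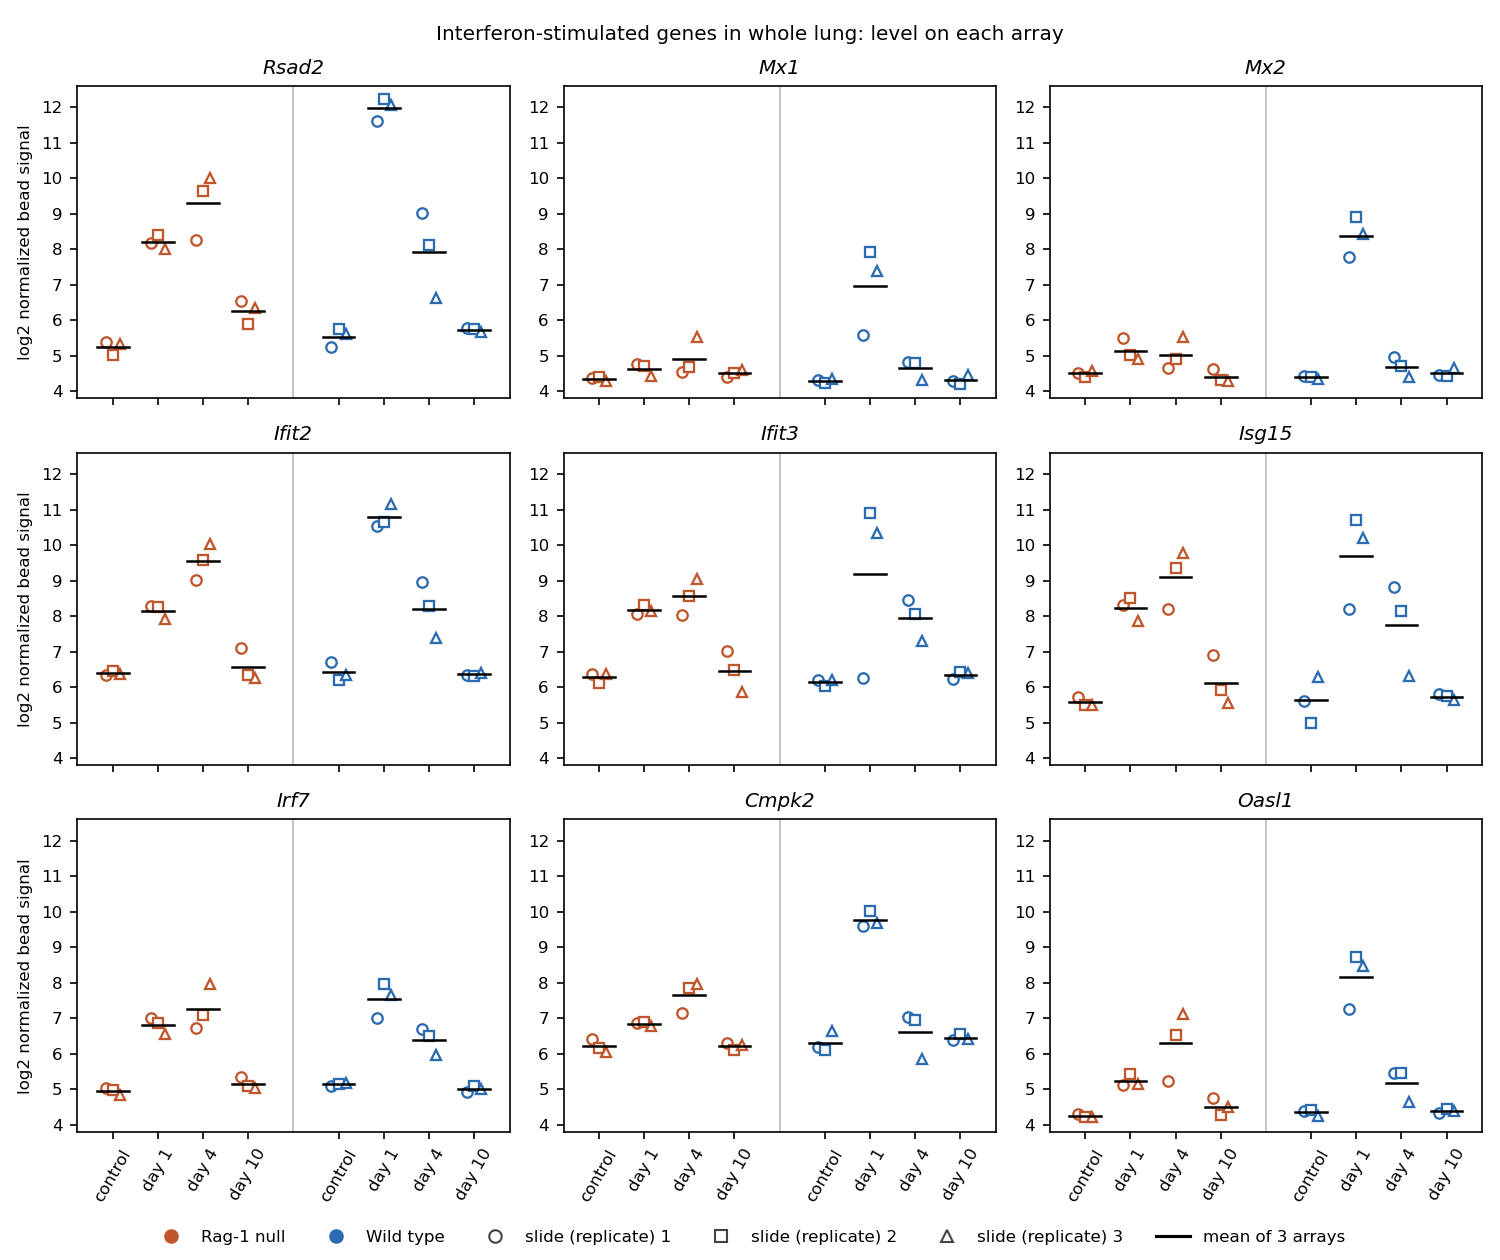
Log2 normalized bead signal of each of the 9 genes (brightest probe) on each of the 24 arrays, with control and LPS days 1, 4 and 10 on the x axis, Rag-1 null arrays at the left and wild type arrays at the right of each panel, and marker shapes for the 3 slides. Wild type means are highest at day 1, Rag-1 null means are highest at day 4 for 8 of the 9 genes, and day 10 lies near control.

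At day 1 after LPS, wild type lungs held more RNA of all 9 antiviral genes than wild type controls. The median rise was 3.81 on the log2 scale, with a range of 2.41 for Irf7 to 6.43 for Rsad2, where the median of all tested probes was -0.01. All 9 were called higher, against 18.1% of all tested probes. For all 9 the 3 day 1 arrays lay above the 3 control arrays, as for 17% of probes. In a whole lung, more expressing cells and more RNA per cell cannot be told apart.

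Rsad2 encodes viperin, a radical SAM enzyme that makes a chain-terminating nucleotide analogue and so blocks viral RNA synthesis. It read 11.61, 12.23 and 12.07 in wild type lungs at day 1, against 5.25, 5.76 and 5.62 in wild type controls, an 86.0-fold rise (log2 6.43 ± 0.41 SE, adjusted p = 1.78e-10). Every day 1 array was far above every control array, and the 3 day 1 arrays lay close together. Its neighbour Cmpk2, a mitochondrial nucleotide kinase that is co-induced with viperin in many cell types, read 9.60, 10.02 and 9.68 at day 1, against 6.20, 6.11 and 6.63 in controls. That was an 11.0-fold rise (log2 3.45 ± 0.24, adjusted p = 4.91e-10), again with no array of the groups overlapping.

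Mx1 and Mx2 are dynamin-like GTPases that trap viral nucleocapsids; in C57BL/6, as in most inbred strains, both genes carry mutations that spoil the protein, so the arrays read their RNA only. Mx2 read 7.78, 8.91 and 8.43 at day 1, against 4.43, 4.40 and 4.35 in controls, at least 12.4-fold higher (adjusted p = 6.15e-11). The bound takes the dimmest signal that counts as above background as the control level. Mx1 read 5.59, 7.93 and 7.39 at day 1, against 4.31, 4.23 and 4.35 in controls, at least 4.69-fold higher (adjusted p = 2.82e-06). Its day 1 replicate 1 was the lowest of the group, and still above all controls.

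Ifit2 and Ifit3 are tetratricopeptide-repeat proteins; IFIT proteins bind foreign RNA and hold back its translation. Ifit2 read 10.54, 10.65 and 11.16 in wild type lungs at day 1, against 6.72, 6.20 and 6.35 in wild type controls, a 20.6-fold rise (log2 4.36 ± 0.30, adjusted p = 3.84e-10). The 3 probes of Ifit3 disagreed on day 1 replicate 1. Its brightest probe read 6.26, 10.91 and 10.35 at day 1, against 6.20, 6.04 and 6.19 in controls, so that replicate 1 was barely above the controls and the other day 1 arrays were far above them. The second probe gave the same picture with 6.00, 11.00 and 10.29 at day 1, whereas the third read 8.59, 8.10 and 9.38 at day 1, against 5.44, 4.50 and 4.70 in controls. The rise of Ifit3 over control was 3.03 ± 0.68 on the brightest probe (adjusted p = 0.00113), and 4.49 ± 0.30 without day 1 replicate 1. A near-identical mouse copy, Ifit3b, exists, and whether the probes also read it was not tested.

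Isg15 is a ubiquitin-like protein that is attached to other proteins during infection. It read 8.19, 10.71 and 10.19 at day 1, against 5.60, 5.0 and 6.27 in wild type controls, a 16.9-fold rise (log2 4.08 ± 0.57, adjusted p = 6.2e-06), with replicate 1 again the lowest. Irf7, the transcription factor that amplifies interferon alpha production, read 7.02, 7.98 and 7.65 at day 1, against 5.09, 5.15 and 5.19 in controls, a 5.31-fold rise (adjusted p = 1.44e-07). Oasl1 belongs to the oligoadenylate synthetase-like family but lacks synthetase activity, and in mice its protein is known to restrain the translation of Irf7. It read 7.25, 8.74 and 8.47 at day 1, against 4.38, 4.42 and 4.25 in controls, at least 10.6-fold higher (adjusted p = 2.68e-08). Its second probe read 4.72, 7.17 and 6.11 at day 1, and the second Mx1 probe read 4.84, 8.20 and 7.40.

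**Figure D2:**
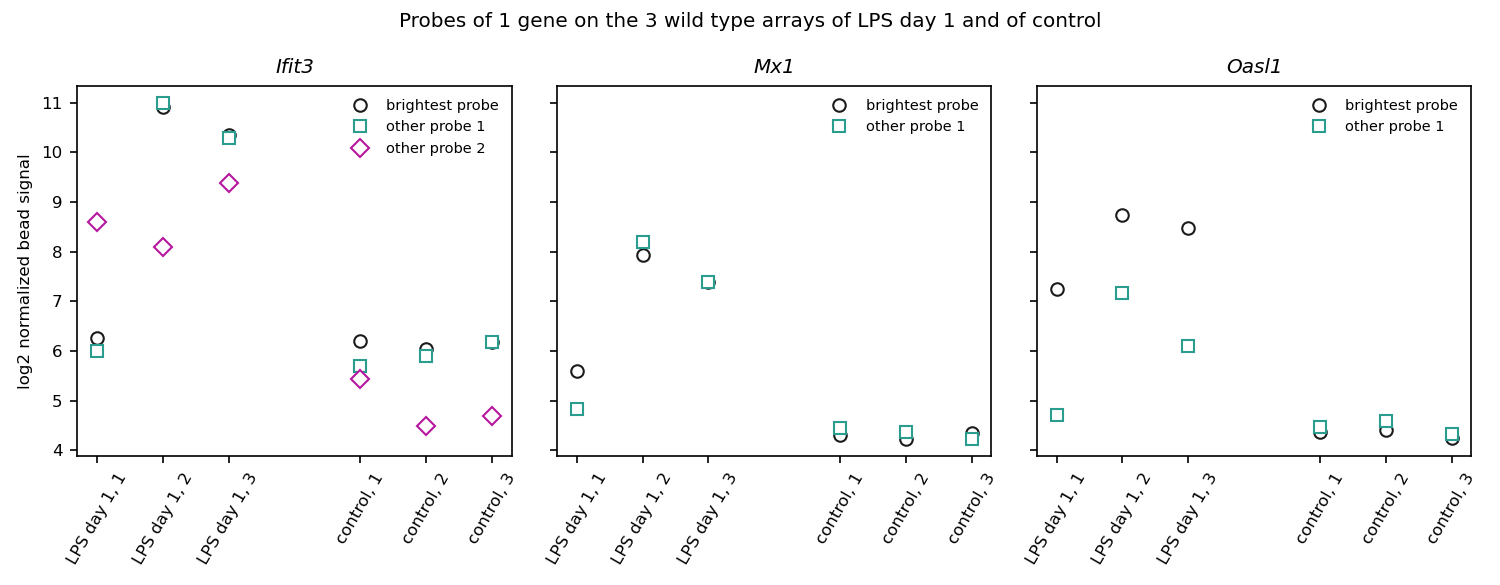
Log2 normalized bead signal of each probe of Mx1, Ifit3 and Oasl1, the genes with more than 1 probe, on the 3 wild type LPS day 1 arrays and then the 3 wild type control arrays. On day 1 replicate 1, 2 of the 3 Ifit3 probes (6.26 and 6.00) are near the control level while the third reads 8.59, and both Mx1 probes are below those of replicates 2 and 3.

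All 9 genes were also called higher at day 1 when wild type day 1 replicate 1 was left out, with a median rise of 4.28. The rise was then 4.83 ± 0.52 for Isg15 and 6.61 for Rsad2.

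Rag-1 null lungs at day 1 held more RNA of Rsad2, Ifit2, Isg15 and Irf7 than Rag-1 null controls. Those 4 of 9 genes were called higher, against 7.75% of all tested probes, and the median change over the 9 genes was 1.76. For all 9 genes the 3 day 1 arrays lay above the 3 control arrays, as for 20.8% of probes, and 8 of 9 had an unadjusted p under 0.05. With wild type day 1 replicate 1 left out of the shared fit, 7 were called.

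Rsad2 read 8.19, 8.39 and 8.00 in Rag-1 null lungs at day 1, against 5.38, 5.02 and 5.33 in Rag-1 null controls, a 7.72-fold rise (log2 2.95 ± 0.41, adjusted p = 1.92e-05). Isg15 read 8.31, 8.50 and 7.87, against 5.72, 5.50 and 5.50 in controls, a 6.29-fold rise (adjusted p = 0.00189). In both genes the arrays of a group lay close together and the groups were well apart. Ifit2 read 8.29, 8.26 and 7.91, against 6.35, 6.46 and 6.37 in controls, a 3.38-fold rise (adjusted p = 0.000185). Irf7 read 7.02, 6.88 and 6.56, against 5.03, 4.97 and 4.84 in controls, a 3.66-fold rise (adjusted p = 1.32e-05). Every LPS array of these genes was above every control array. The 5 genes that did not pass had log2 differences of 1.88 ± 0.68 for Ifit3 (adjusted p = 0.0612), 0.98 ± 0.35 for Oasl1 (adjusted p = 0.0597), 0.64 for Mx2 (adjusted p = 0.061), 0.64 ± 0.24 for Cmpk2 (adjusted p = 0.0726) and 0.28 for Mx1 (adjusted p = 0.697). Of the 3 Ifit3 probes, 1 was called higher. Cmpk2, next to Rsad2 on the chromosome, read 6.88, 6.91 and 6.77, against 6.42, 6.17 and 6.06 in Rag-1 null controls.

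**Figure D3:**
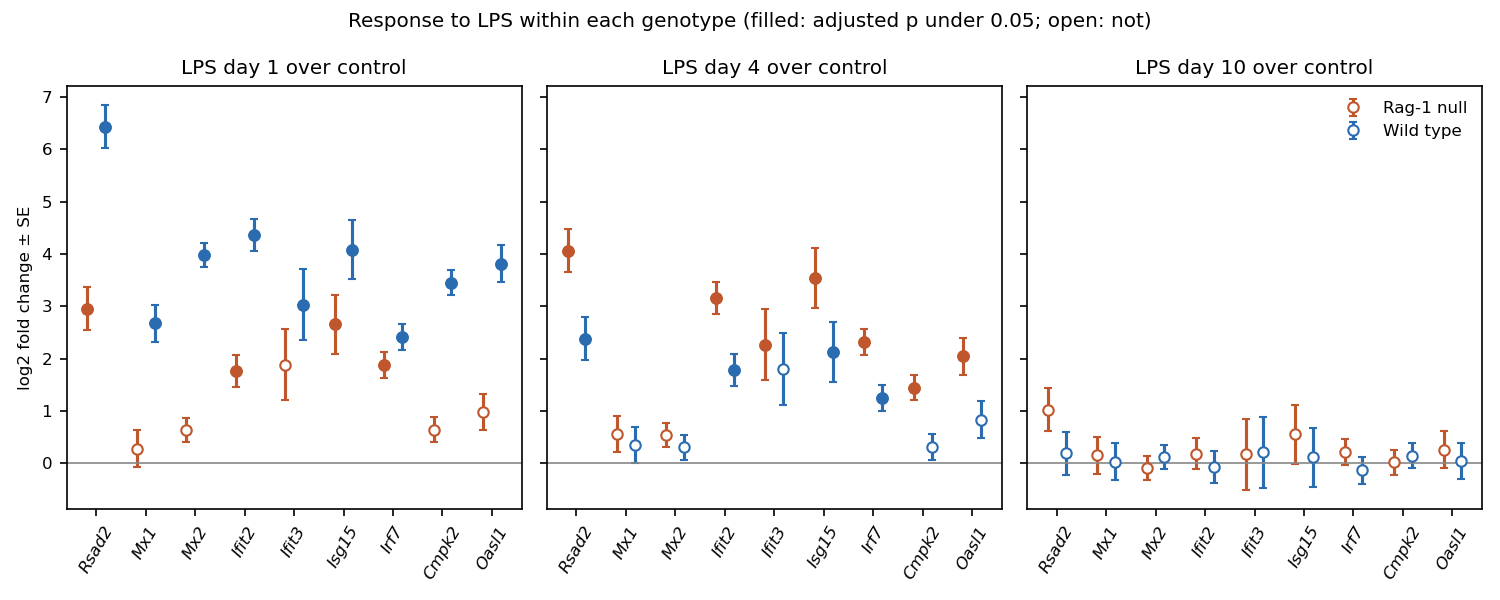
Log2 fold change over the same genotype's controls with its standard error, for each gene at days 1, 4 and 10, Rag-1 null at the left of each pair and wild type at the right; filled points passed an adjusted p of 0.05 in limma. At day 1 every wild type point lies above the Rag-1 null point of its gene, at day 4 the Rag-1 null points are the higher, and at day 10 no point is filled.

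Set against each other at day 1, Rag-1 null lungs held less RNA of 7 of the 9 antiviral genes than wild type lungs. The median log2 difference was -2.63, and 11.4% of all tested probes were called lower. The 7 were Rsad2, Mx1, Mx2, Ifit2, Irf7, Cmpk2 and Oasl1, and in each the 3 Rag-1 null arrays lay below the 3 wild type arrays, as for 15.7% of probes. For Irf7 that separation was smaller than the rounding, since its highest Rag-1 null and lowest wild type array both read 7.02. Isg15 and Ifit3 overlapped: in both, wild type replicate 1 lay within or below the Rag-1 null range.

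Rsad2 was 13.7-fold lower in Rag-1 null lungs (log2 -3.78 ± 0.41, adjusted p = 1e-06), with no Rag-1 null array above 8.39 and no wild type array below 11.61. Mx2 read 5.50, 5.02 and 4.92 in Rag-1 null lungs, against 7.78, 8.91 and 8.43 in wild type lungs, and was 9.34-fold lower (adjusted p = 3.58e-09). Oasl1 read 5.12, 5.43 and 5.15 in Rag-1 null lungs, against 7.25, 8.74 and 8.47 in wild type lungs, and was 7.56-fold lower (adjusted p = 3.79e-06). These genes were above background in both groups, so the folds are measured on both sides. Cmpk2 was 7.53-fold lower (adjusted p = 2.6e-08), with differences of -2.72, -3.11 and -2.91 on slides 1, 2 and 3. Ifit2 was 6.19-fold lower (adjusted p = 1.69e-06), with differences of -2.25, -2.39 and -3.25. Mx1, which read 4.78, 4.70 and 4.42 in Rag-1 null lungs and was above background on 2 of those 3 arrays, was 5.05-fold lower (adjusted p = 5.05e-05). Irf7 differed least of the 7, at 1.66-fold (adjusted p = 0.0382), and on slide 1 its level rounded to 7.02 in both genotypes.

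Isg15 differed by -1.47 ± 0.57 (adjusted p = 0.0628) and Ifit3, which read 8.05, 8.30 and 8.15 in Rag-1 null lungs, by -1.01 ± 0.68 (adjusted p = 0.306). The third Ifit3 probe read 6.81, 7.19 and 7.41 in Rag-1 null lungs, below the wild type values given above, and was called lower (log2 -1.55 ± 0.30, adjusted p = 0.000635). Leaving out wild type day 1 replicate 1, all 9 genes were called lower in Rag-1 null lungs, with a median of -3.00. Ifit3 was then at -2.47 ± 0.30 (adjusted p = 1.79e-06) and Isg15 at -2.23 ± 0.52 (adjusted p = 0.00209).

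The difference between the 2 genotypes' responses (LPS over control, Rag-1 null minus wild type) was tested in the same fit. It passed for 6 of 9 genes, all negative, against 4.02% of all tested probes. Mx1 and Oasl1 were not above background in any control and Mx2 in no wild type control, so for these 3 genes the responses start from control levels that were not measured and the sizes given are fitted values. Mx2 had the smallest p, at -3.34 ± 0.33 (adjusted p = 1.36e-06), and Cmpk2 followed at -2.81 ± 0.34 (adjusted p = 1.86e-05). Rsad2 stood at -3.48 ± 0.58 (adjusted p = 0.000744), Oasl1 at -2.83 ± 0.50 (adjusted p = 0.0011), Ifit2 at -2.60 ± 0.42 (adjusted p = 0.000528) and Mx1 at -2.40 ± 0.50 (adjusted p = 0.00386). The second Oasl1 probe stood at -1.42 and did not pass. Irf7 (-0.54 ± 0.36, adjusted p = 0.409), Isg15 (-1.42 ± 0.80, adjusted p = 0.314) and Ifit3 (-1.15 ± 0.96, adjusted p = 0.531) did not pass. Over its 3 probes Ifit3 stood at -2.27 to -1.15, and 1 of them was called lower. Without wild type day 1 replicate 1, 8 passed, Isg15 at -2.18 ± 0.70 (adjusted p = 0.0336) and Ifit3 at -2.61 ± 0.40 (adjusted p = 0.000112) among them, while Irf7 at -0.81 ± 0.33 did not (adjusted p = 0.1).

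**Figure D4:**
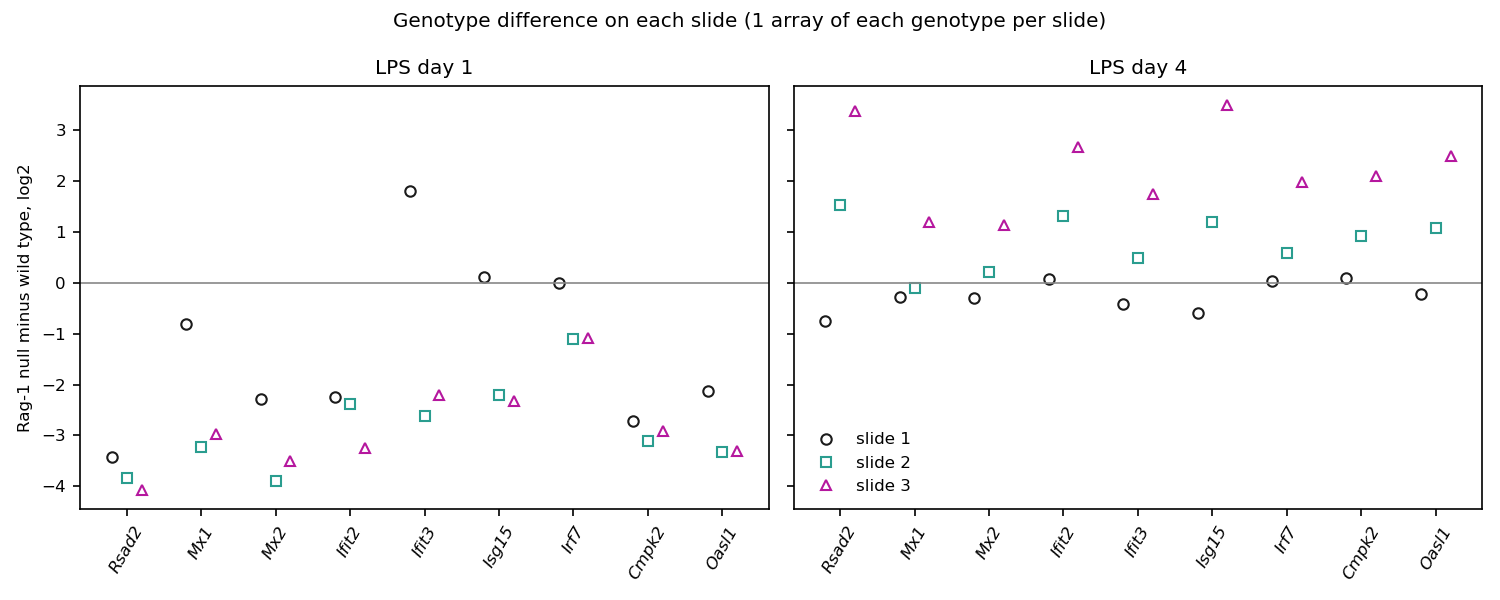
Log2 difference between the Rag-1 null and the wild type array of the same slide for each gene, at LPS day 1 (left) and day 4 (right), with a marker shape for each of the 3 slides. At day 1 all 9 differences are negative on slides 2 and 3, and at day 4 they are near 0 or negative on slide 1 and positive for all 9 genes on slide 3.

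Markers of other cell types are given for this comparison as summed normalized signal per array, with how many were called. Of all 13544 tested probes, 1759 were called higher and 1538 lower in Rag-1 null than in wild type lungs at day 1. Alveolar epithelial markers summed to 7638 to 11256 in Rag-1 null lungs at day 1, against 17552 to 18280 in wild type lungs. Of the 5, however, only the bright Sftpc was called lower in Rag-1 null lungs (log2 -1.43), while Abca3, Ager and Aqp5 were called higher and the median was 0.61. Fibroblast markers (Col1a1, Col1a2, Pdgfra and Col3a1) summed to 1253 to 1388 in Rag-1 null lungs, against 455 to 1386 in wild type lungs, with 3 of 4 called higher and a median of 1.2. Endothelial markers (Pecam1, Cdh5, Kdr and Tek) summed to 1325 to 1400 in Rag-1 null lungs, against 576 to 1485 in wild type lungs, with 2 of 4 called higher. Markers of plasmacytoid dendritic cells, known for high interferon alpha output (Siglech, Tcf4, Klk1 and Cox6a2 of the 6 listed), summed to 803 to 853 in Rag-1 null lungs, against 989 to 1110 in wild type lungs, with 1 of 4 called lower. Monocyte and macrophage markers (Adgre1, Mrc1, Marco and Chil3 of the 8 listed) summed to 1266 to 2050 in Rag-1 null lungs, against 681 to 1485 in wild type lungs, with 1 called higher. The listed Ccr2 and Ly6c2 were not tested. The 6 neutrophil markers summed to 10602 to 13273 in Rag-1 null lungs, against 5645 to 13572 in wild type lungs, and none was called. Natural killer cell markers (Klrb1c, Klrd1 and Prf1) summed to 147 to 176 in Rag-1 null lungs, against 100 to 121 in wild type lungs, with 1 of 3 called higher. Their part in the result was not tested, nor was that of the T and B cell markers, which were lower in Rag-1 null lungs.

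Wild type lungs had their highest mean at day 1 for all 9 genes, and Rag-1 null lungs at day 4 for 8 of the 9. In wild type lungs at day 4, 8 of the 9 genes were called lower than at day 1, with a median of -2.58, against 16.7% of all tested probes. In Rag-1 null lungs, 2 of 9 were called higher at day 4 than at day 1, with a median of 0.80, against 4.23% of all tested probes, and 4 of 9 had an unadjusted p under 0.05. This Rag-1 null change varied with the slide, or with the single array, since each slide held 1 array of a group. Its median was -0.01 on slide 1 (4 genes positive, 5 negative), 0.85 on slide 2 and 1.4 on slide 3 (all 9 positive). In 7 genes every wild type day 4 array was below every day 1 array, as for 17.3% of probes, and in 2 genes every Rag-1 null day 4 array was above every day 1 array, as for 13.9%. Over the 9 genes the mean level was 6.83 on day 1 and 7.52 on day 4 for Rag-1 null lungs, whereas it was 9.16 on day 1 and 6.59 on day 4 for wild type lungs.

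In wild type lungs Rsad2 read 9.02, 8.11 and 6.63 at day 4, below every day 1 array (log2 -4.05 ± 0.41, adjusted p = 1.73e-07). It was still 5.19-fold above control (adjusted p = 0.000238). Replicate 3 was the lowest of its group in all 9 genes. Against control, 4 of 9 genes were called higher in wild type lungs at day 4 (median 1.24), against 10.7% of all tested probes: Rsad2, Ifit2 at 3.44-fold (adjusted p = 0.000163), Isg15 at 4.38-fold (adjusted p = 0.00885) and Irf7 at 2.37-fold (adjusted p = 0.0011). Ifit2 read 8.96, 8.27 and 7.38, Isg15 8.81, 8.14 and 6.30, and Irf7 6.69, 6.49 and 5.97, and in these 3 genes too every LPS array was above every control array. That held for 6 of the 9 genes, as for 19.4% of probes. The other 5 did not pass: Ifit3 stood at 1.80 ± 0.68 (adjusted p = 0.0591), Oasl1 at 0.83 (adjusted p = 0.091), Mx1 at 0.35 (adjusted p = 0.512), Mx2 at 0.30 and Cmpk2 at 0.31 (adjusted p = 0.392 for both). Of the 3 Ifit3 probes, 1 was called above control. Cmpk2 read 7.05, 6.94 and 5.86, a group that overlapped its controls, and was 8.87-fold below its day 1 level (log2 -3.15 ± 0.24, adjusted p = 3.9e-09). Mx2 read 4.96, 4.70 and 4.41 and was 12.9-fold below its day 1 level (adjusted p = 2.74e-10). Ifit3 was the gene whose fall since day 1 did not pass on its brightest probe (-1.23, adjusted p = 0.17). Over its 3 probes the change was -2.27 to -1.23, and 1 of them was called lower. Without wild type day 1 replicate 1 all 9 were called lower than at day 1, and 6 were called above control.

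In Rag-1 null lungs at day 4, 7 of 9 genes were called higher than in Rag-1 null controls, with a median of 2.26, against 11.9% of all tested probes. For all 9 the LPS arrays lay above the control arrays, as for 22% of probes. Rsad2 read 8.27, 9.64 and 10.01, a 16.7-fold rise (log2 4.06 ± 0.41, adjusted p = 1.42e-07), and Isg15 read 8.21, 9.34 and 9.79, an 11.6-fold rise (adjusted p = 5.11e-05). Replicate 1 was the lowest of the 3 in both, as in all 9 genes. Ifit2 read 9.03, 9.59 and 10.03, an 8.92-fold rise (adjusted p = 5.16e-08), and was the gene with the smallest p for a rise from day 1 (log2 1.40 ± 0.30, adjusted p = 0.00412). Irf7 read 6.73, 7.08 and 7.96, a 4.95-fold rise (adjusted p = 4.02e-07), and Ifit3 read 8.04, 8.57 and 9.05, a 4.8-fold rise (adjusted p = 0.015). Both overlapped their day 1 arrays. Cmpk2 read 7.14, 7.86 and 7.96, all above its 3 day 1 arrays (log2 0.80 ± 0.24 over day 1, adjusted p = 0.0437), and was 2.71-fold above control (adjusted p = 8.37e-05). Oasl1 read 5.23, 6.52 and 7.13 and was at least 3.32-fold above control (adjusted p = 0.00012), while its second probe did not pass (0.58 ± 0.33, adjusted p = 0.21). Mx1 (0.56, adjusted p = 0.266) and Mx2 (0.53 ± 0.23, adjusted p = 0.0987) did not pass; Mx2 read 4.67, 4.91 and 5.53, and its highest Rag-1 null mean was at day 1. Without wild type day 1 replicate 1 in the shared fit, all 9 were called above control.

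Compared at day 4, Rag-1 null lungs held more Ifit2 than wild type lungs, and the other 8 genes did not pass. Ifit2 was 2.54-fold higher (log2 1.35 ± 0.30, adjusted p = 0.0389), the 1 gene of 9 called higher, against 0.34% of all tested probes, and 6 of 9 had an unadjusted p under 0.05. Cmpk2 stood at 1.04 ± 0.24 (adjusted p = 0.0529), Rsad2 at 1.38 ± 0.41 (adjusted p = 0.168) and Isg15 at 1.36 ± 0.57 (adjusted p = 0.422). In Ifit2, Irf7 and Cmpk2 every Rag-1 null array was above every wild type array, as for 6.08% of probes. The difference varied with the slide, or with the single array, since each slide held 1 array of a group. On slide 1 the median over the 9 genes was -0.27, with 6 negative and 3 positive, on slide 2 it was 0.92, and on slide 3 it was 2.09, with all 9 positive. Rsad2 differed by -0.75, 1.52 and 3.37 on slides 1, 2 and 3, and Ifit2 by 0.07, 1.31 and 2.66. Leaving out Rag-1 null day 4 replicate 1 raised the count of genes called to 5, leaving out wild type day 1 replicate 1 gave 2, and 15 of the 24 leave-one-array-out fits called none. The difference between the genotypes' responses at day 4 passed for 0 of 9 genes in limma, 5 of 9 having an unadjusted p under 0.05, and for 0% of all tested probes. Over all probes that count depended on the scaling: the deposited value table called 982 higher and 294 lower, and centring the arrays 67 higher and 1740 lower. It was 1.68 ± 0.58 for Rsad2 (adjusted p = 0.267) and 1.13 for Cmpk2 (adjusted p = 0.185). At this day alveolar epithelial markers summed to 8257 to 14761 in Rag-1 null lungs, against 13253 to 19159 in wild type lungs, and neutrophil markers to 8634 to 14250 in Rag-1 null lungs, against 4032 to 10773 in wild type lungs, with none of either list called. Their part in the result was not tested.

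By day 10 none of the 9 genes passed against control in either genotype. In Rag-1 null lungs the median was 0.18, 0 of 9 genes passed in limma and 1 had an unadjusted p under 0.05, where 4.64% of all tested probes were called higher and 4.24% lower. That gene was Rsad2, which read 6.54, 5.90 and 6.36, above all 3 Rag-1 null controls (log2 1.02 ± 0.41, adjusted p = 0.147). In wild type lungs the median was 0.11 and 0 of 9 passed, also 0 at an unadjusted p under 0.05, where 0.945% of all tested probes were called higher and 1.11% lower. In 2 of the 9 genes every day 10 array was above every control array, as for 14.5% of probes, and in 1, Irf7, every day 10 array was below. Rsad2 read 5.78, 5.76 and 5.67 there, overlapping its controls. The genotypes did not differ past the threshold at day 10 (0 of 9 in limma, 0 at an unadjusted p under 0.05, median 0.15 for Rag-1 null over wild type), where 2.97% of all tested probes were called higher and 2.55% lower. The difference in response passed for 0 of 9 genes too, and for 0 at an unadjusted p under 0.05, where 0.775% of all tested probes were called higher and 0.746% lower.

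Across the 24 arrays, which are 8 groups of 3, the 9 genes varied together. Their 36 pairs had Pearson r of 0.682 (Mx2 and Ifit3) to 0.979 (Rsad2 and Ifit2), with a median of 0.891. Of the 9596 other genes, the 8 most like the mean of the 9 were Usp18 (r = 0.985), Ogfr (0.978), Pcgf5 (0.973), Phf11d (0.971), Parp9 (0.969), Apol9b (0.965), Trim30a (0.963) and Trex1 (0.962). Such values are a description: the points share their groups, and they carry no test.

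Other genes of the interferon pathways were read from lists grouped by role, chosen with earlier results of these data known. Most genes named from them, here and below, had the smallest adjusted p of their list in wild type lungs at day 1. That choice favours large changes in wild type lungs, so the genotype differences of these genes at day 1 only describe them. Of all tested probes, 7.75% were called higher than control in Rag-1 null and 18.1% in wild type lungs at day 1. At day 4 the shares were 11.9% in Rag-1 null and 10.7% in wild type lungs. In wild type lungs at day 1, 2871 of 13544 tested probes were called lower. No probe on the array carried any of the 19 type I interferon ligand names listed, Ifnb1 among them, so the ligands were not analysed here. Of the 5 receptor and signalling genes tested (of 7 listed), 2 rose in Rag-1 null lungs at day 1, and 4 rose and 1 fell in wild type lungs at day 1, with medians of 0.59 in Rag-1 null and 0.90 in wild type lungs. Without wild type day 1 replicate 1, 3 rose and 1 fell in wild type lungs. Stat2 stood at 0.59 in Rag-1 null lungs, not past the threshold, and rose by 2.04 ± 0.30 in wild type lungs (adjusted p = 1.29e-05). Its response differed between the genotypes by -1.45 ± 0.43 (adjusted p = 0.0384). Irf9, its partner in the ISRE-binding complex, rose in both, by 0.71 in Rag-1 null (adjusted p = 0.0265) and 1.17 in wild type lungs (adjusted p = 0.000179). The receptor chain Ifnar2 rose by 0.82 in Rag-1 null and 0.90 in wild type lungs. The kinase Tyk2 was at least 1.3-fold lower in wild type lungs on its brightest probe (adjusted p = 0.00389), which was not above background there, while its second probe did not pass (-0.22 ± 0.18, adjusted p = 0.376).

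Of 17 genes tested that sense microbial products or induce interferon (of 20 listed), 6 rose in Rag-1 null lungs at day 1, and 9 rose and 1 (Irf3, -0.77) fell in wild type lungs. Without wild type day 1 replicate 1, 7 rose in Rag-1 null lungs, and 10 rose and 2 fell in wild type lungs. At day 4, 10 rose in Rag-1 null and 7 in wild type lungs. Ddx58, the RNA sensor RIG-I, stood at 0.65 in Rag-1 null lungs at day 1 (adjusted p = 0.18, and 0.0425 without wild type day 1 replicate 1) and rose by 2.41 in wild type lungs (adjusted p = 2.92e-06). Tbk1, the kinase that activates IRF3, rose by 0.63 in Rag-1 null and 1.60 in wild type lungs, and was lower in Rag-1 null than in wild type lungs (-1.18, adjusted p = 6.82e-05). Tlr7, a receptor for single-stranded RNA, rose by 0.78 in Rag-1 null and 1.51 in wild type lungs, and Irf5, a factor downstream of it, by 0.98 in Rag-1 null and 1.62 in wild type lungs.

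Of the other antiviral effectors (29 tested of 44 listed), 15 rose in Rag-1 null and 23 in wild type lungs at day 1. On that day 16 were lower in Rag-1 null than in wild type lungs, against 11.4% of all tested probes. Their responses at day 1 differed between the genotypes for 9 of 29, all lower in Rag-1 null lungs, against 4.02% of all tested probes. Without wild type day 1 replicate 1 they differed for 16 of 29. At day 4, 25 rose in Rag-1 null and 11 in wild type lungs. Eif2ak2, the kinase PKR that stops translation on double-stranded RNA, rose at day 1 by 0.85 in Rag-1 null and 2.55 in wild type lungs. At day 4 it was the effector called higher in Rag-1 null than in wild type lungs (0.82, adjusted p = 0.0403), a call lost when only the compared arrays were fitted (adjusted p = 0.318). Parp9 rose at day 1 by 0.80 in Rag-1 null and 2.68 in wild type lungs. Of the 5 tested genes of ISG15 conjugation and feedback, 3 rose in Rag-1 null and 5 in wild type lungs at day 1. Usp18, the protease that removes Isg15 and dampens IFNAR signalling, rose by 1.16 in Rag-1 null (adjusted p = 0.00298) and 2.98 in wild type lungs (adjusted p = 1.33e-08), a difference in response of -1.82 ± 0.37 (adjusted p = 0.00339). Socs3, a feedback inhibitor of cytokine receptors that use STAT3, rose by 2.89 in Rag-1 null and 2.90 in wild type lungs, and did not pass between them (-0.59, adjusted p = 0.235).

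Interferon gamma is the type II interferon, made mainly by T cells and natural killer cells, and it acts on a receptor of its own. Of 13 genes tested from its list (17 listed, the ligand and its known targets), 7 rose in Rag-1 null lungs at day 1, and 11 rose and 1 (Ciita) fell in wild type lungs. At day 4 all 13 rose in Rag-1 null lungs (median 2.70) and 9 rose in wild type lungs (median 1.29), and 7 were called higher in Rag-1 null than in wild type lungs: Ifng, Cxcl9, Gbp2, Gbp7, Irgm1, Tgtp1 and Ifi47. Over all tested probes 0.34% were called higher in that comparison, and fitting only its own 6 arrays called none, with adjusted p of 0.301 to 0.37 for these 7 genes. Ifng, the ligand itself, read 4.92, 6.71 and 7.13 in Rag-1 null lungs at day 4, against 5.22, 4.50 and 4.32 in wild type lungs (log2 1.57 ± 0.33, adjusted p = 0.0271), and Rag-1 null replicate 1 lay within the wild type range. Wild type Ifng was above background on 1 of the 3 day 4 arrays, so the size is a fitted value. It was at least 3.22-fold above Rag-1 null controls (adjusted p = 7.35e-05), where it was not above background. Natural killer cell markers summed to 168 to 291 in Rag-1 null lungs at day 4, against 129 to 200 in wild type lungs, and their part in the result was not tested. Cxcl9, a chemokine for activated lymphocytes, was higher in Rag-1 null lungs at day 4 by 1.87 ± 0.42 (adjusted p = 0.0403). Cxcl10, a chemokine that type I interferon also induces, was at least 10.8-fold higher than control in Rag-1 null lungs at day 1 and at least 40.0-fold higher in wild type lungs, and lower in Rag-1 null than in wild type lungs (-2.06, adjusted p = 0.0132).

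**Figure D5:**
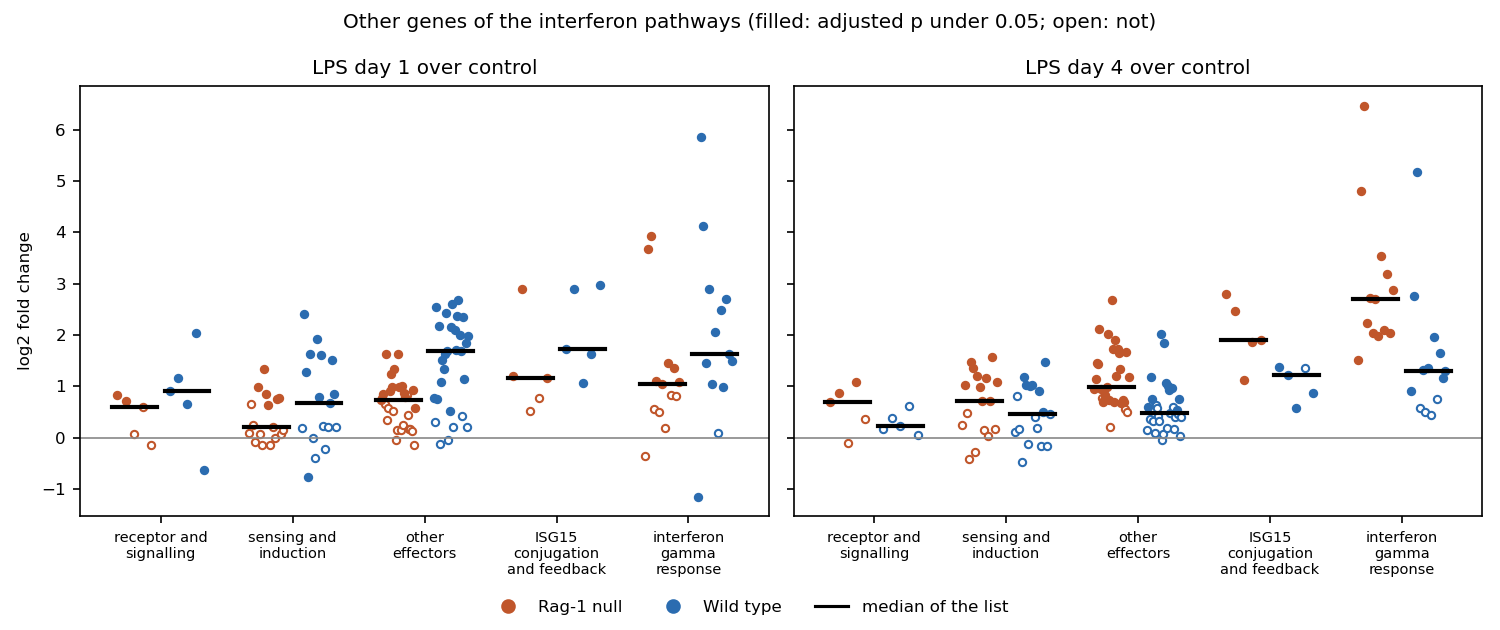
Log2 fold change of LPS day 1 (left) and day 4 (right) over control for every tested gene of 5 other pathway lists, Rag-1 null at the left and wild type at the right of each pair; filled points passed an adjusted p of 0.05 and lines are list medians. At day 1 all 5 medians are higher in wild type lungs (effectors 0.73 in Rag-1 null and 1.69 in wild type), and at day 4 all 5 are higher in Rag-1 null lungs (interferon gamma response 2.70 in Rag-1 null and 1.29 in wild type).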

How the data were processed

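Whole-lung RNA was measured on 24 Illumina beadchip arrays, which limits the precision. Per the file headers, the deposited scanner table gives each probe's mean bead signal as a linear intensity and a detection score as a fraction; the software behind them is not given in the sources used. The deposited value table holds, for 13029 probes, values that equal log2 of the authors' scanner signal minus the array's mean over these probes, with a largest difference of 0.00054. Its columns (medians -0.546 to -0.371) identified the scanner array of each sample, since every other array differed by 1.42 or more somewhere. The title line of the scanner table names another sample for 22 of the 24 arrays, which would change the group of 20, and was not used for this match; which of them the submitters intended is not settled by the labels.

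From the scanner intensity, neqc in limma 3.58.1 (R 4.3.3, offset 16) gave background-corrected, quantile-normalized log2 values, with a detection p of 1 minus the score. The 13544 probes above background (detection p under 0.05) on at least 3 arrays were tested, all 13 member probes among them. Each member passed this filter without the wild type day 1 arrays too. Between 9517 and 12125 probes per array were above background, and the median raw signal was 31.0 to 47.9. One fit of 8 group means over 24 arrays (eBayes with trend, two-sided, Benjamini-Hochberg over all tested probes, adjusted p under 0.05) gave every log2 difference, standard error and adjusted p; the fit was first tested on simulated data. A gene's value is that of its brightest probe. All members are named; of each other list, up to 4 genes with the smallest adjusted p at wild type day 1 are described, plus Ifng and single genes that a count singles out, which were chosen after their values were seen. The members and lists were chosen with earlier results of these data known. "At least" folds set the dim group at the lowest signal above background on each array. Same-numbered arrays share a slide; of 84 same-numbered pairs 32 had deviations correlated above 0.1 (lowest -0.493, median 0.06), so the numbers were not taken as pairs. Alternatives changed the background correction, normalization, source table, filter, arrays fitted, prior, slide block, probe rule, weights and each array in turn.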

Additional observations from a re-analysis of the deposited data

Results flagged for a closer look

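The response to LPS at day 1 differed between the genotypes, by a test of the difference itself, in 6 of the 9 genes. The difference (Rag-1 null minus wild type, log2) was -3.48 for Rsad2, -2.81 for Cmpk2 and -2.60 for Ifit2. It was fitted at -3.34 for Mx2, -2.83 for Oasl1 and -2.40 for Mx1, whose wild type controls were not above background, so these sizes rest on control levels that were not measured. The second Oasl1 probe stood at -1.42 and did not pass. At day 1 every Rag-1 null array read below every wild type array for each of the 6 genes, as for 15.7% of probes. The adjusted p of the difference in limma was 0.00386 or less on the brightest probe of all 6.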

How the results depend on the processing

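Over 12 other settings and 24 fits that each left out 1 array, no called member value among 4845 changed sign, 52 uncalled values of at most 0.46 in size did, 4702 kept their side of the threshold, 48 lost a call and 95 gained one. The count of the 9 genes called at wild type day 1 was 8 to 9, that of Rag-1 null below wild type at day 1 was 6 to 9, and that of the day 1 difference in response was 5 to 8. Array weights gave 8 genes at Rag-1 null day 1, 1 at Rag-1 null day 10, 6 for Rag-1 null over wild type at day 4, 4 for Rag-1 null day 4 over day 1 and 5 for the day 4 difference in response. Fitting only the compared arrays gave 8 at Rag-1 null day 1, 1 at Rag-1 null day 10 and 0 for Rag-1 null over wild type at day 4. Centring the arrays in place of quantile normalization gave 7 at wild type day 4 and 1 for Rag-1 null day 4 over day 1, and no detection filter gave 1 for the same comparison. No background correction, the stricter filter, the robust prior and the mean of a gene's probes each gave 2 for Rag-1 null over wild type at day 4. With the replicate block, that comparison gave 0 and Rag-1 null day 4 over day 1 gave 1; the other counts stayed within 1.5 times the reported ones, and the numbers may mark only the slide. Leaving out 1 array gave 4 to 7 at Rag-1 null day 1 (7 without wild type day 1 replicate 1 or 2), 3 to 6 at wild type day 4, 0 to 1 at Rag-1 null day 10, 0 to 5 for Rag-1 null over wild type at day 4, 1 to 4 for Rag-1 null day 4 over day 1 (4 without Rag-1 null day 4 replicate 1) and 0 to 1 for the day 4 difference in response (1 without wild type day 4 replicate 1). The call for Rag-1 null over wild type at day 4 lay near the threshold: Ifit2 was called in 19 of 36 other settings. The count was 3 without wild type day 4 replicate 1 and 0 without replicates 2 or 3 of either day 4 group. It was also 0 without certain arrays outside the comparison, such as any 1 Rag-1 null control or Rag-1 null day 1 array. The cause was not tested. Over all probes that comparison called 46 higher and 27 lower, against 0 and 15 with only the compared arrays, 507 and 487 with array weights and 41 and 755 with centring, which moved the median of all probes by -0.21. Dim genes limit the rest: Mx1 and Oasl1 were not above background in any control.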
